A study of Mus musculus with 5 samples.

Results

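A switchable form of the kinase Akt was studied in mouse embryonic stem (ES) cells, which were compared with and without 4-hydroxytamoxifen (4OHT), the ligand that switches the kinase on. The comparison sets 1 array of line 21 cells in 4OHT against 1 array of the same line without it, both in ES cell culture, out of 5 arrays in the series. Both arrays were taken by their titles, and the comparison was picked with earlier results of these data known. Of 16032 named genes on the array, 9852 were compared, namely those with a value on both arrays and at or above the 40th percentile on at least 1 of them. Another 1601 genes had no value on at least 1 of the 2 arrays, and 4579 lay under the percentile on both. A gene under the percentile on 1 array was thus compared only through the array where it read higher.

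Line 21 is a feeder-free derivative of the ES cell line E14tg2a that expresses myr-Akt-Mer, so the untreated array carries the transgene too. The treated cells received 1 µM 4OHT, and the labels do not say for how long before harvest. The other 3 arrays are used below as points of reference. Akt-spheres of line 21 and of a second line, 42, had grown with 1 µM 4OHT on OP9 stromal cells, with treatment begun 3 days before induction. ES-like reverted cells came from line 21 spheres after transient 4OHT on embryonic fibroblasts, and whether 4OHT was still present at harvest is not given. Each ES group is 1 line and 1 array. No array of 4OHT-treated cells without the transgene is among the 5, so an effect of the kinase and an effect of 4OHT itself cannot be told apart.

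Akt is a serine/threonine kinase that acts below phosphoinositide 3-kinase (PI3K) in insulin and growth factor signalling. The myristoyl group holds the fusion protein at the membrane, and the modified estrogen receptor domain (Mer) keeps it inactive until 4OHT binds. Active Akt is known for keeping FoxO transcription factors out of the nucleus, for activating the growth regulator mTORC1 and for supporting self-renewal of mouse ES cells. Of 44 gene lists followed here, the one with the highest median difference belongs to another pathway, the integrated stress response. In that pathway, kinases that sense amino acid shortage, unfolded protein, haem shortage or viral RNA phosphorylate the initiation factor eIF2, and translation of the transcription factor ATF4 goes up while most translation goes down. ATF4 and its partners then activate genes for amino acid synthesis and import, for aminoacyl-tRNA synthetases and for the factor CHOP (Ddit3).

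The 2 arrays were close to each other across most genes. Levels below are the deposited probe intensities, and each difference is the treated minus the untreated array after log2(intensity + 1) and centring of each array on its median, so folds of dim probes are understated. The log2 differences had a median of -0.03 and an SD of 0.50 across the compared genes, and 8162 genes (82.8%) lay within 1.5-fold. At least 2-fold apart were 488 genes (4.95%), of which 252 read higher with 4OHT (2.56%) and 236 read lower (2.40%). In the list counts below, higher and lower mean at least 2-fold, and each count stands beside these shares. Centring moved the treated array down by 0.14 on the log2 scale relative to the untreated one, and without it the split was 363 higher and 166 lower. With 1 array a group there is no replicate check and these counts, given without p-values, describe 2 libraries. The spread available within the pair is that of different probes for the same gene. Over 84 genes with several compared probes, the log2 differences of the probes differed by a median of 0.25 and by up to 1.09 at the 95th percentile.

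Other array pairs lay farther apart. Reverted cells and untreated ES cells differed by at least 2-fold in 11.5% of compared genes, treated ES and reverted cells in 15.5%, and the spheres of lines 42 and 21 in 15.7%. Between line 21 spheres and treated ES cells the share was 26.5%, and between line 21 spheres and reverted cells 17.0%. Calls were more frequent among dim genes. Where the brighter array read under 100, 5.88% of 3382 genes were at least 2-fold apart, against 4.83% of 4702 genes between 100 and 1000 and 3.51% of 1768 genes from 1000 upward.

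**Figure D1:**
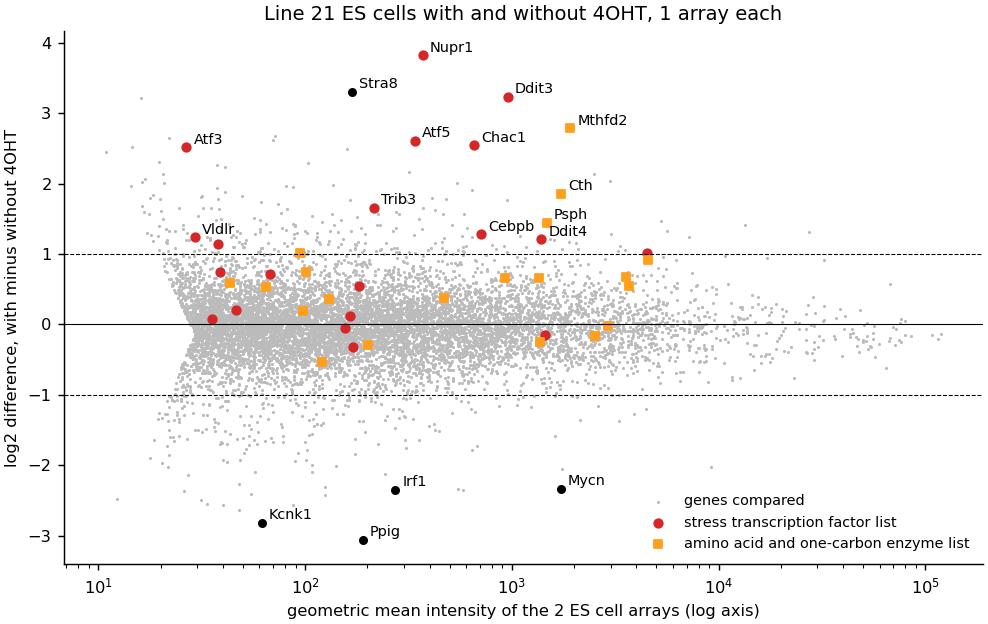
Each point is a compared gene, with the geometric mean intensity of the 2 ES arrays on a log x axis and the log2 difference, treated minus untreated, on the y axis, and dashed lines mark 2-fold. Red circles are the stress factors, orange squares the amino acid and one-carbon enzymes and black circles other labelled genes, and Nupr1 at 3.82 and Ppig at -3.05 are the ends of the range.

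Transcription factors and effectors of the integrated stress response had the highest median difference of the 44 lists. Of 20 compared members of a list of 24 such genes, 11 read at least 2-fold higher with 4OHT and 0 read at least 2-fold lower. Of the 11, Atf3, Vldlr and Jdp2 lay under the percentile without 4OHT and were compared only through the treated array. The share of all compared genes at least 2-fold higher was 2.56%. The median log2 difference over the 20 was 1.08, beside -0.03 over all compared genes. The list was written with earlier results of these arrays known, so its median is a description only.

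Ddit3 encodes CHOP, a transcription factor made late in a lasting stress response. Its intensity was 297 without the ligand and 3073 after it, 288 in the reverted line, 303 in line 21 spheres and 257 in line 42 spheres. The treated ES array thus stood alone, 9.39-fold above the untreated one, and the other 4 arrays lay close together. Nupr1, a small stress-induced chromatin protein, read 93.8 without and 1467 with 4OHT, and 22.6, 14.4 and 15.9 in reverted cells, line 21 spheres and line 42 spheres. That 14.1-fold difference was the largest of all compared genes. Atf5, a relative of ATF4 that is controlled in translation in the same way, read 131 without and 882 with 4OHT, and 233, 241 and 341 on the other arrays in the same order. Chac1, an enzyme that breaks down glutathione, read 258 without and 1660.4 with 4OHT, and 124, 363 and 314 on the other arrays. On each of these 4 genes the treated ES array was at least 2-fold above all of the other arrays.

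Atf4 itself read 3028 without and 6745 with 4OHT, 2.03-fold higher, and 3203, 2357 and 3054 in reverted cells and the spheres of lines 21 and 42. Its log2 difference of 1.02 lies just past the 2-fold threshold. Trib3, a pseudokinase that is induced by ATF4 and CHOP and can bind Akt, read 115 without and 400.5 with 4OHT, and 104, 62.8 and 86.7 on the other arrays. Cebpb, a bZIP factor that pairs with CHOP, read 433 without and 1157 with 4OHT. Among dim bZIP genes, Atf3, a repressor of the same family, read 10.2 without and 69.5 with 4OHT, but also 49.6 in reverted cells. Jdp2, another such repressor, read 24.0 without and 59.6 with 4OHT.

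In 2 of the 11 genes the spheres were brighter than the treated ES cells. Ddit4 (REDD1), an inhibitor of mTORC1, read 869 without and 2209.8 with 4OHT, but 2607 and 2788 in the spheres. Vldlr, a lipoprotein receptor known as a target of ATF4, read 17.9 without and 48.1 with 4OHT, but 386 and 255 in the spheres. Among members under 2-fold, Ppp1r15a (GADD34), the phosphatase subunit that reverses eIF2 phosphorylation, read 145 without and 232 with 4OHT. Ndrg1 and Stc2 had log2 differences of 0.74 and 0.72. Sesn2, a leucine sensor that also answers to ATF4, read 1447 without and 1430.2 with 4OHT. The genes of the eIF2 kinases were near their untreated level, with intensities of 181 and 159 for Eif2ak3 (PERK), 152 and 161 for Eif2ak4 (GCN2) and 32.9 and 38.4 for Eif2ak2 (PKR). Cebpg, a bZIP partner of ATF4, read 41.1 and 52.4, and Bbc3 (PUMA), a pro-apoptotic Bcl2 relative, read 151 and 180. Of the 23 members on the array, 3 were not compared. Gdf15, a secreted stress cytokine, read 17.3 without and 21.6 with 4OHT, and Fgf21, a stress-induced hormone, read 6.46 and 15.2, both under the percentile, and the third was the death receptor Tnfrsf10b.

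**Figure D2:**
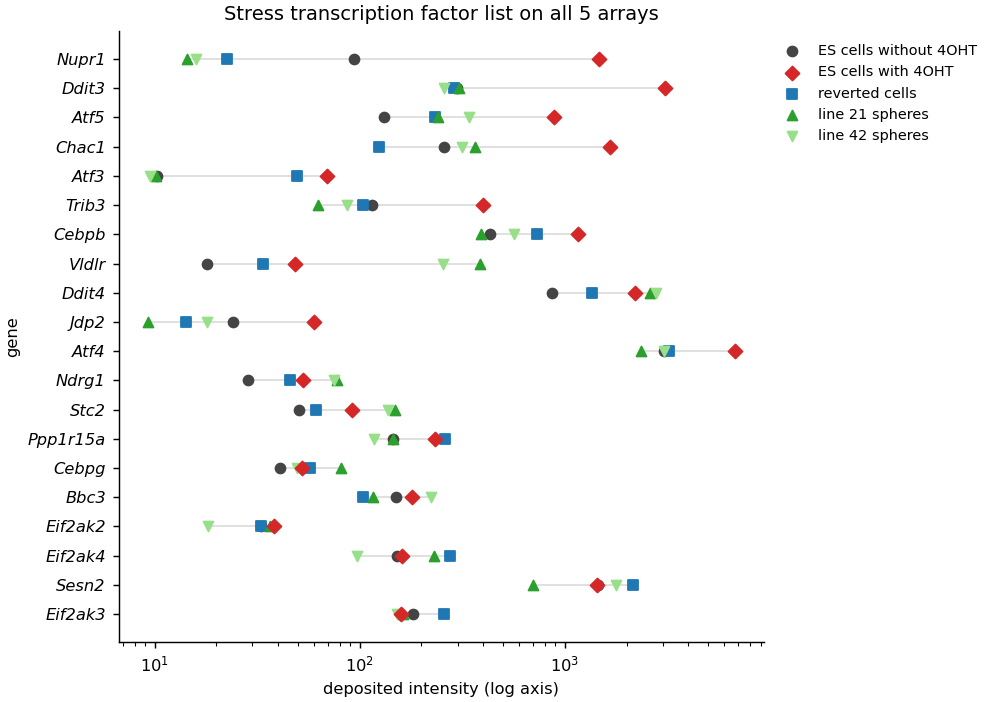
The intensity of the 20 compared stress factors is plotted on a log x axis, 1 row per gene and 1 point per array, with the 5 arrays in different colours and shapes. For Ddit3, Nupr1, Atf5 and Chac1 the treated ES array, at 3073, 1467, 882 and 1660.4, lies at the right of the other 4, while for Ddit4 and Vldlr the spheres reach higher.

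In the pairs of arrays with a median given next, the same list had smaller median differences. Single members such as Nupr1 and Vldlr, with the values above, differed widely. Its median log2 difference was 0.39 for reverted cells against untreated ES cells, a comparison that shares the untreated array. Between line 21 spheres and reverted cells, which share no array with the 4OHT comparison, it was -0.05, and for line 42 spheres it was -0.19. For treated ES against reverted cells, log2 differences of members ran from -0.81 (Eif2ak4) to 5.92 (Nupr1). Atf3, Cebpb and Ddit4 were at 0.44, 0.63 and 0.67 there, all under 2-fold. The spheres had been grown in 4OHT as well, on OP9 stroma and in another medium.

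ATF4 dimers bind the amino acid response element, whose core is searched here as TGATGNAA on both strands. RefSeq promoter windows of build GRCm38.p6, from 250 bases before to 50 after a gene's start, were at hand for 7972 compared genes. The core occurred in the windows of 208 of them (2.61%), in 16 of 202 genes at least 2-fold higher (7.92%) and in 5 of 178 at least 2-fold lower (2.81%). Counted by window and not by gene, the core was in 3.97% of 32851 windows of all genes. Among the 11 stress genes that read higher, 6 held it (Nupr1, Chac1, Atf3, Trib3, Jdp2 and Vldlr). Of these, Atf3, Jdp2 and Vldlr were compared only through the treated array. Of the 8 compared stress genes under 2-fold that had a window, 0 held it. The stress list was written with earlier results of these arrays known, so this split of its members is a description only. The stretches around the core are shown for 5 of the 6, since all of these stress genes read higher and the stretches show where the core lies. The core is in capitals, and it reads TTGCATCA where it lies on the strand opposite to the gene.
Nupr1, chr7:126625528-126625625 (- strand): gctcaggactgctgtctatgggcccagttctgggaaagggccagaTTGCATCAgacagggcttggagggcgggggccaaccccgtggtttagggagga
Chac1, chr2:119351004-119351101 (+ strand): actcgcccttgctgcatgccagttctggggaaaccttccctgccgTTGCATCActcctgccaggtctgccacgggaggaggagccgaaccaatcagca
Atf3, chr1:191183391-191183488 (- strand): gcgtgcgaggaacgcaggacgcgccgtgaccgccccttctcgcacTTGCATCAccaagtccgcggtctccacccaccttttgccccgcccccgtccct
Jdp2, chr12:85599338-85599415 (+ strand): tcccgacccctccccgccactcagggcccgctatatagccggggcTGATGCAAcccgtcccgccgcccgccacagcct
Vldlr, chr19:27216775-27216872 (+ strand): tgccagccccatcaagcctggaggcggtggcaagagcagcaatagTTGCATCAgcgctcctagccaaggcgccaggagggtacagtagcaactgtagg

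The first base of the core lay 110 bases before the start of Nupr1 and of Atf3, 193 before Chac1, 33 before Jdp2 and 200 before Vldlr, and 15 after the start of Trib3. The other 10 genes with a core that read higher were Pck2, Herpud1, Cyb5r2, Serpinf1, Slamf9, Apobec1, Srgn, Mbnl2, Catsperz and Tnnt1. Among them, Cyb5r2 (6.59) and Serpinf1 (20.0) lay under the percentile without 4OHT. The 5 that read lower were Sfn, Nr5a2, Hesx1, Crabp1 and Igsf3. Across all compared genes with a window, the median log2 difference was 0.09 for the 208 with the core and -0.02 for the 7764 without it. The windows of Ddit3, Atf4, Atf5, Cebpb, Ddit4, Mthfd2, Psph and Aldh18a1 did not hold these letters. The FoxO motif GTAAACA was in windows of 3.21% of the compared genes, 3.47% of those higher and 3.93% of those lower. For the E-box CACGTG, bound by Myc and by TFE factors, the shares were 12.1%, 11.4% and 9.55%. The ER stress element was in windows of 16 genes (0.201%), 2 of them higher and 1 lower. A match is a description of the letters and not a measured binding site.

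**Figure D3:**
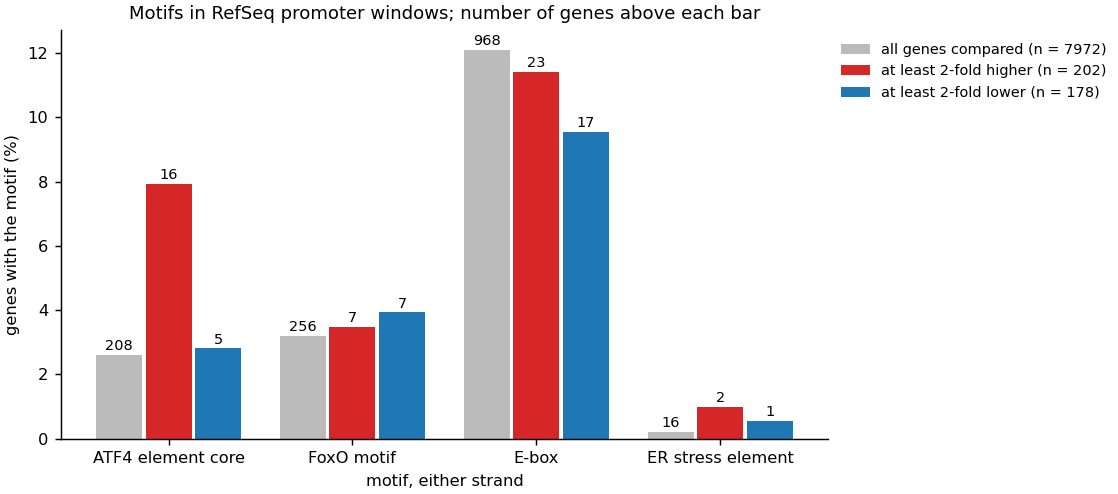
Bars give the percent of genes that hold each motif in a promoter window on either strand, with the number of such genes above each bar. They are drawn for all compared genes with a window, for those at least 2-fold higher and for those at least 2-fold lower with 4OHT. The ATF4 element core is at 2.61%, 7.92% and 2.81%, and the FoxO motif at 3.21%, 3.47% and 3.93%.

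Enzymes that make serine, asparagine, proline and one-carbon units also leaned to the treated side. Of 20 compared members, 4 read at least 2-fold higher, beside 2.56% of all compared genes, and 0 at least 2-fold lower. The median log2 difference was 0.57. Mthfd2, the mitochondrial folate enzyme that is high in proliferating cells, read 695 without and 5266 with 4OHT, and 1013, 1648 and 1621 in reverted cells and the spheres of lines 21 and 42. It was 6.88-fold higher and the treated ES array stood above all others. Psph, the last enzyme of serine synthesis, read 853 without and 2548 with 4OHT, and 537, 733 and 759.7 on the other arrays, so the treated array was again the highest. Cth, which makes cysteine from cystathionine, read 864 without and 3442 with 4OHT, and 1782, 364 and 154 on the others. Aldh18a1, the first enzyme of proline synthesis, read 63.3 without and 141 with 4OHT.

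Several bright enzymes of that list read higher by less than 2-fold. Psat1, the transaminase of serine synthesis, read 3157 without and 6539 with 4OHT, a log2 difference of 0.91. Asns, asparagine synthetase, had a log2 difference of 0.67, and reverted cells at 4797 were as bright as the treated ES cells at 4695. Shmt2, the mitochondrial serine hydroxymethyltransferase, differed by 0.66. Glul, glutamine synthetase, went the other way with intensities of 139 and 105. Pck2, the mitochondrial enzyme that makes phosphoenolpyruvate, is not on that list and read 326 without and 1062 with 4OHT.

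Among 18 compared cytosolic aminoacyl-tRNA synthetases, which charge tRNAs with their amino acids, 2 read at least 2-fold higher and the median log2 difference was 0.23. Nars, for asparagine, read 1399.5 without and 6327 with 4OHT, 4.11-fold higher, and 2581, 1843 and 2309 on the other arrays. Cars, for cysteine, read 951 without and 2433 with 4OHT, and 902, 1279.6 and 926 on the others. For both the treated array was the brightest of the 5. Amino acid transporters had no common direction, with 1 of 13 higher, 1 lower and a median of 0.02. Slc6a9, a glycine transporter, read 211 without and 477 with 4OHT, and Slc6a6, the taurine transporter, read 286 and 151. Slc3a2, the heavy chain shared by several amino acid exchangers, had a log2 difference of 0.93, and its leucine-carrying partner Slc7a5 one of 0.58.

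Chaperones of the endoplasmic reticulum, which mark the unfolded protein response, did not follow the stress factors. Of 21 compared members, 1 read at least 2-fold higher and 1 lower. Their median log2 difference was -0.12, and 0.01 without centring. Hspa5 (BiP), the main chaperone and sensor partner of the organelle, read 4119 without and 3127 with 4OHT, and 7248, 6598 and 3630.1 in reverted cells and the spheres of lines 21 and 42. The treated ES array was therefore the lowest of the 5. Hsp90b1 (GRP94) and the disulfide isomerase Pdia6 had log2 differences of -0.55 and -0.48. Herpud1, which assists degradation of misfolded protein, read 54.9 without and 143 with 4OHT, while Derl3, of the same degradation pathway, read 222 and 109.7. Of 12 compared heat shock genes, which include the mitochondrial chaperones Hspd1 and Hspa9 and the factor Hsf1, 0 were 2-fold apart, and their median was -0.09, above 0 without centring.

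Lysosomal and autophagy genes were mostly on the treated side by small amounts. Of 23 compared members, 20 had a log2 difference above 0, beside 4661 of all 9852 compared genes, and the median was 0.41, but 1 passed 2-fold upward and 1 downward. Hexa, a lysosomal hexosaminidase subunit, read 674 without and 1779 with 4OHT, and 808, 709 and 708 on the other arrays. The cathepsin proteases Ctsd and Ctsl had log2 differences of 0.78 and 0.80, and the membrane protein Lamp1 one of 0.49. Sqstm1 (p62), an autophagy receptor, differed by 0.83. Gabarapl1, an autophagosome protein and FoxO target, read 407 without and 216 with 4OHT, and was under 2-fold lower without centring.

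Targets of p53 included 4 of 18 at least 2-fold higher, beside 2.56% of all compared genes, and 0 at least 2-fold lower. Their median was 0.12. Cdkn1a (p21), the inhibitor of cyclin-dependent kinases, read 199 without and 692 with 4OHT, but 863, 981 and 1701 in reverted cells and the spheres of lines 21 and 42, so the untreated array was the low one. Mdm2, the ubiquitin ligase that removes p53, read 1201 without and 2985 with 4OHT, and 1524, 1106 and 1476 on the others. The death receptor Fas read 74.0 without and 185 with 4OHT, and the kinase Plk2 read 385 and 874. For Mdm2, Fas and Plk2 the treated array was the highest of the 5. Ccng1 and Phlda3 lay under 2-fold at 0.92 and 0.73 on the log2 scale. In the Bcl2 and apoptosis list 1 of 13 read higher, the caspase activator Apaf1 (46.5 and 109), and 1 lower, the Bcl2 relative Bok (123 and 48.9).

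Genes of the NRF2 antioxidant programme and glutathione metabolism were mixed, with 2 of 17 higher, 1 lower and a median of 0.10. Nqo1, a quinone reductase, read 218 without and 616 with 4OHT, against 73.2 to 138 on the other 3 arrays. Hmox1, haem oxygenase, read 1151 and 2656. Gpx2, a glutathione peroxidase, read 135 without and 45.9 with 4OHT, 439 after reversion, and had no value in either sphere array. Ftl1, the ferritin light chain, was bright on both arrays with a log2 difference of 0.58.

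Cell cycle genes were balanced, with a median of 0.04 over 29 members. Besides Cdkn1a, the 2 at least 2-fold higher were Cdkn1c (p57), an imprinted kinase inhibitor that read 1367 without and 3171 with 4OHT, and Mcm7, a subunit of the replication helicase that read 2323 and 5295. Mcm7 read 4477 to 7211 on the other 3 arrays, so the untreated array was the low one there. Ccnd2, a D cyclin repressed by FoxO factors, read 108 without and 57.9 with 4OHT and lost its 2-fold difference without centring.

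In the pathway that 4OHT addresses, genes that FoxO factors activate and that feed back on PI3K had 0 of 15 members at least 2-fold higher and 3 lower, beside 2.40% lower among all genes. Their median log2 difference was -0.10, and 0.03 without centring. Of the 15, 9 lay below 0 and 6 above, among the latter Cat at 0.71, Txnip at 0.48 and Sod2 at 0.35. Irs2, an adaptor of the insulin receptor and a FoxO target, read 279.7 without and 118 with 4OHT, 702 after reversion, 89.0 in line 21 spheres and 79.8 in line 42 spheres. Igf1r, the receptor of insulin-like growth factors, read 58.2 without and 22.8 with 4OHT, and 133, 29.7 and 9.04 on the other arrays. For both genes the reverted cells were highest and the untreated ES cells came next. Pik3ip1, a negative regulator of PI3K, read 52.5 and 27.6, and was under 2-fold without centring. Igf1r and Pik3ip1 lay under the percentile with 4OHT and were compared only through the untreated array. The FoxO gene Foxo1 read 214 without and 178 with 4OHT.

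Among the components of the Akt and PI3K pathway, 0 of 23 were at least 2-fold higher and 3 were lower, with a median of -0.06 that was above 0 without centring. The probe named Akt1 read 187 without and 199 with 4OHT, and Akt2 read 135 and 157. The Akt1 level does not show the activity of the fusion protein, and whether its probe also reads the transgene was not tested. Trib2, a pseudokinase, read 87.8 without and 33.9 with 4OHT, and 200.4, 374 and 229 on the other arrays, so the treated ES array was the lowest. Eras, the ES-specific Ras protein that stimulates PI3K, read 2189 without and 1189 with 4OHT, 1284 after reversion and 57.9 and 49.2 in the spheres. Phlpp1, a phosphatase of Akt, read 32.0 and 16.2, the latter under the percentile. Eras and Phlpp1 were under 2-fold without centring.

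Glycolytic genes leaned to the untreated side, with 0 of 22 at least 2-fold higher, 3 lower and a median of -0.40, or -0.27 without centring. Of the 22, 19 lay below 0, beside 5191 of all 9852 compared genes. The list's median was -0.34 for reverted cells against untreated ES cells, a comparison that shares the untreated array. Slc16a3, the lactate exporter MCT4, read 2672 without and 979 with 4OHT, and 3564, 5160.4 and 6132 on the other arrays. Ldhb, a lactate dehydrogenase subunit, read 5049.7 without and 2148 with 4OHT, and 4301, 3304 and 3819.9 on the others. Pfkfb3, which makes the activator of phosphofructokinase, read 90.7 without and 43.2 with 4OHT, and 209.6 to 486 on the other 3 arrays. The treated ES array was the lowest of the 5 for all of these 3 genes. Eno1, an enolase, differed by -0.76, Slc2a1 (the glucose carrier GLUT1) by -0.42 and Ldha by -0.40 on the log2 scale, and Hk2, a hexokinase that Akt is known to act on, by -0.08. Eno1 and Slc2a1 read lower still in reverted cells (14713 and 1667) and in line 21 spheres (10634 and 1241). In line 42 spheres they read 32015 and 2249.

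Of 17 genes of the pentose phosphate pathway and purine synthesis, 0 were 2-fold apart, and the median was -0.26. Of 25 sterol and fatty acid genes, 2 read at least 2-fold higher, Sc5d (35.6 and 102), an enzyme late in cholesterol synthesis, and Scd1 (207 and 549), the stearoyl-CoA desaturase, and the median was 0.05. Of 13 hypoxia-induced genes 1 read at least 2-fold higher and 2 lower, with Vegfa, the vascular growth factor, at 9.37 without and 32.9 with 4OHT, and with Egln3 at 92.1 and 28.0 and Ankrd37 at 56.9 and 27.4. The 24 compared respiratory chain genes had 0 members 2-fold apart and a median of 0.02.

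Mycn, the Myc family member that is abundant in mouse ES cells, read 3684 without and 806 with 4OHT, 5.02-fold lower, and 4118, 1679 and 1662 in reverted cells and the spheres of lines 21 and 42. The treated ES array was the lowest of the 5. It was the only member of 18 in the Myc and ribosome biogenesis list at least 2-fold apart. The list's median was -0.26, with Myc at -0.78 and the nucleolar protein Ncl at -0.75 on the log2 scale. The 18 compared ribosomal protein genes had 0 members 2-fold apart, as had the 24 proteasome subunits and the 12 housekeeping controls, with medians of -0.19, 0.04 and -0.18.

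**Figure D4:**
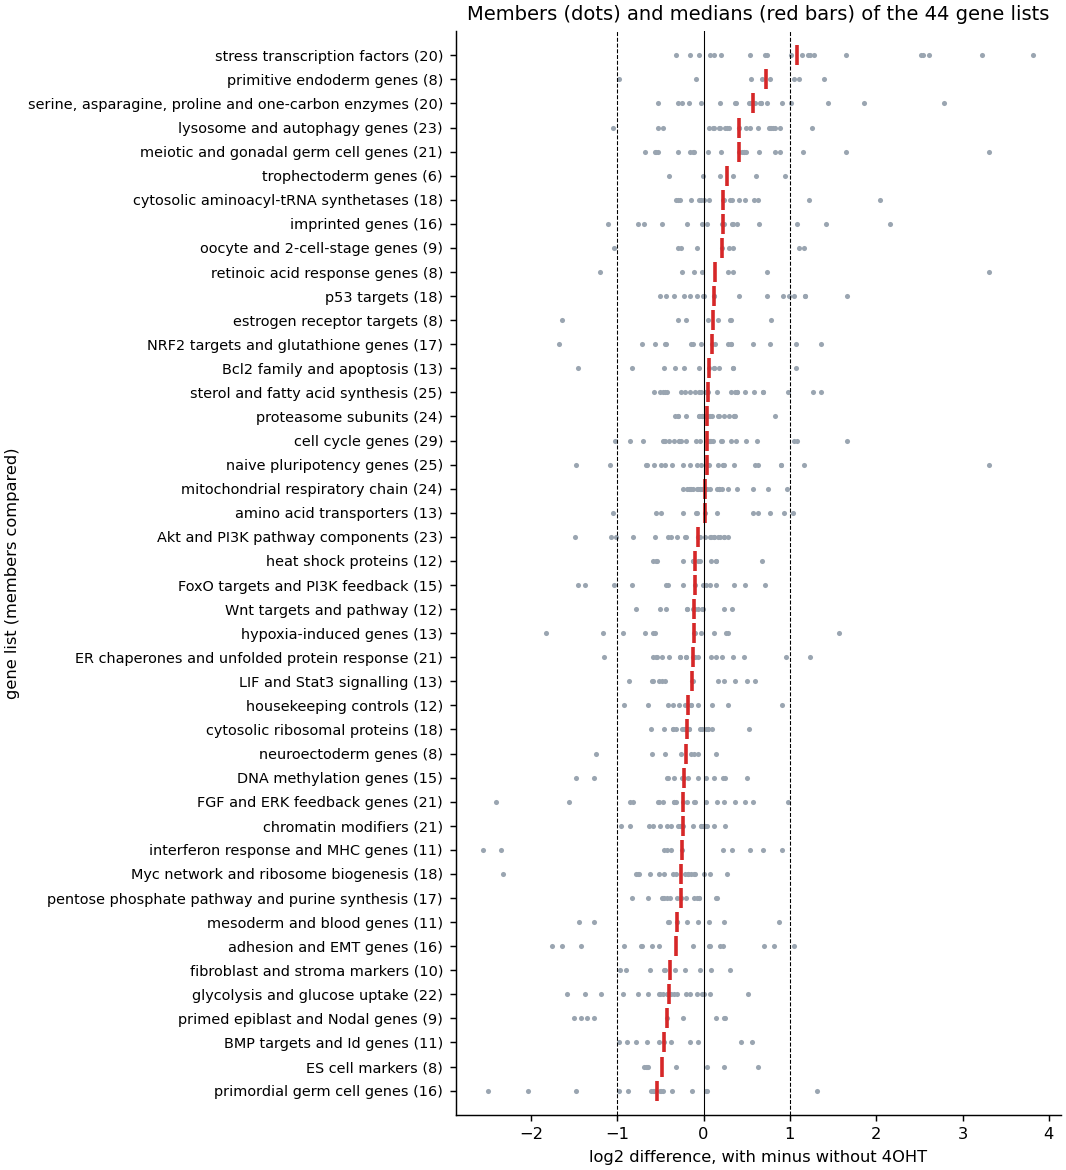
Each row is 1 of the 44 gene lists, with a point for each compared member at its log2 difference (treated minus untreated ES cells), a bar at the list's median and dashed lines at 2-fold. The stress list has its median at 1.08 and 11 points right of the upper line, while the other lists have medians between -0.54 and 0.73.

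Markers of ES cells had values on both arrays, which the labels give as ES cells, although Esrrb lay under the percentile without 4OHT. Of 8 compared markers, 0 were 2-fold apart, and the median log2 difference was -0.48. Nanog, a core pluripotency factor, read 5479.7 without and 3839 with 4OHT, 4538 after reversion, and 5523 and 4003 in the spheres. Zfp42 (Rex1) read 14177 without and 15996 with 4OHT, against 86.1 in line 21 spheres and 1029.8 in line 42 spheres. Klf4, Tdgf1 and Utf1 differed by -0.66, -0.64 and -0.69 on the log2 scale. Dppa5a read 58362 without and 51355 with 4OHT, Fgf4 read 278 and 362, and Esrrb 23.4 and 40.6.

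Among 25 compared genes of naive pluripotency, 2 were higher and 2 lower, with a median of 0.04. Stra8, which retinoic acid induces in germ cells that enter meiosis, read 50.7 without and 559.8 with 4OHT, and 3.15, 13.4 and 54.9 on the other arrays. It was 9.86-fold higher, the second largest difference of the comparison. Pecam1, a surface adhesion protein, read 115 and 284. Nr5a2, a nuclear receptor of the pluripotency network, read 793 and 410.3, a difference under 2-fold without centring. Dppa3 (Stella), a maternal and germ cell factor, read 435 without and 171 with 4OHT, and 1626, 223 and 9198 on the others, so the treated array was the lowest and line 42 spheres by far the highest.

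Genes of primed epiblast and Nodal signalling had 4 of 9 members at least 2-fold lower, beside 2.40% of all compared genes, and 0 at least 2-fold higher. Their median was -0.42, and 3 of the 9 lay above 0. Another 4 members on the array, Fgf5 among them, were not compared. Otx2, a transcription factor of the primed state, read 681 without and 263 with 4OHT, and 1549, 634 and 146 on the other arrays. Lefty1, a secreted Nodal inhibitor and target, read 3260.4 without and 1402 with 4OHT, and 4338, 4218 and 2474 on the others. Dnmt3b, a de novo DNA methyltransferase, read 5767 and 2621, and Cdh2 (N-cadherin) read 178 and 72.8. For Lefty1 and Cdh2 the treated ES array was the lowest of the 5, whereas line 42 spheres were lower still for Otx2 and both spheres for Dnmt3b.

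Of 21 FGF and ERK feedback genes, 0 were higher and 2 lower, with a median of -0.24. Fgf15, a growth factor, read 122 without and 24.4 with 4OHT, and Spry1, an inhibitor of ERK signalling, read 71.3 and 26.1. The 11 BMP targets had 0 members 2-fold apart and a median of -0.46, with Id1 at -0.66 and Id2 at -0.89. LIF and Stat3 genes (13 members) and Wnt genes (12 members) had 0 members 2-fold apart, with medians of -0.13 and -0.11, both above 0 without centring.

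The series names its spheres as like primordial germ cells, and genes of that cell type were followed in the ES cells. Of 16 compared, 1 read at least 2-fold higher and 3 lower, with a median of -0.54, or -0.41 without centring. Kit, the receptor that germ cells need to survive, read 73.0 without and 13.4 with 4OHT, and 11.2, 213 and 66.5 in reverted cells and the spheres of lines 21 and 42. Ifitm1, a membrane protein of early germ cells that interferon also induces, read 17679 without and 4764 with 4OHT, and 15447, 3623 and 3288 on the other arrays, so the treated ES cells were near the spheres. Dppa3 was the third gene lower, with the values above. The early germ cell regulators Prdm1 and Nanos3 differed by -0.97 and -0.61 on the log2 scale. Rhox6, a homeobox gene of germ cells and placenta, read 36.1 without and 101 with 4OHT.

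Meiotic and gonadal germ cell genes had a median of 0.41 and 0 of 21 members at least 2-fold lower. At least 2-fold higher were 3, beside 2.56% of all compared genes. Besides Stra8, which is on several of the lists, these were Taf7l (12.8 and 46.7), a germ cell transcription factor subunit, and Tex101 (54.7 and 135), a germ cell surface protein. For these 3 genes the treated ES array was the highest of the 5. In the list of oocyte and 2-cell genes, Padi6 (41.9 and 104) and Nlrp4f (29.2 and 70.4) were higher and Khdc3 (551 and 294) was lower, the last under 2-fold without centring. Stra8 was the only retinoic acid response gene of 8 that read at least 2-fold higher. Crabp1, which binds retinoic acid in the cytoplasm, read 177 without and 84.4 with 4OHT. Since 4OHT is a ligand of estrogen receptors, their target genes were listed too. Of 8 compared, 0 read at least 2-fold higher, beside 2.56% of all compared genes, and with 8 genes so small a share cannot be told from 0. Pdzk1 (32.2 and 10.7) read lower, but was under 2-fold with a pseudocount of 16, and the list's median was 0.11. Another 6 members on the array, the receptor gene Esr1 among them, were not compared.

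Markers of other cell types were summed on both arrays, beside 90183 with and 105032 without 4OHT for the 8 ES markers, and 0 of the listed markers on the array lacked a value. The 8 fibroblast and stroma markers summed to an intensity of 2646 with and 2939 without 4OHT, 4 mesoderm markers to 73.1 and 70.1, 2 neuroectoderm markers to 61.7 and 85.8, and 4 trophectoderm markers to 249.8 and 244. The 4 germ cell markers summed to 686 and 818. The 6 primitive endoderm markers summed to 283 with and 153 without 4OHT, and the part of such cells in the other differences was not tested. Gata6 and Sox17 gave most of that gain, while Gata4, Sox7 and Foxa2 had log2 differences of -0.31, -0.10 and 0.13 and lay under the percentile. In the longer list for that tissue, 9 of 17 members on the array were not compared. Of the 8 compared, 3 read at least 2-fold higher, beside 2.56% of all compared genes, with a median of 0.73. The 3 were the transcription factors Gata6 (72.4 and 165) and Sox17 (11.3 and 34.5) and the basement membrane collagen Col4a2 (29.0 and 70.0). Sox17 and Col4a2 were compared only through the treated array, and all 3 were under 2-fold with a pseudocount of 16. Trf, transferrin, had the lowest difference of that list at -0.98. In bulk RNA, more cells of a type and more RNA per cell cannot be told apart. Mesoderm and blood genes had Etv2 (175 and 70.2) and Tek (32.5 and 14.2) lower among 11, and the neuroectoderm list had Pax6 (36.0 and 16.2) lower among 8. Of 6 trophectoderm and 10 stroma genes, 0 were 2-fold apart.

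Genes of adhesion and epithelial state included Esrp1, an epithelial splicing factor that read 542 without and 176 with 4OHT, and Cldn6, a tight junction protein that read 600.0 and 212. With Cdh2 these were the 3 of 16 lower, and Zeb1, a repressor of epithelial genes, was the 1 higher at 68.5 and 157. The list's median was -0.32. Of 15 DNA methylation genes, Dnmt3b and Dppa3 were the 2 lower, with a median of -0.23, and of 21 chromatin modifiers 0 were 2-fold apart.

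Of 16 imprinted genes, 3 were higher and 1 lower. Igf2, the growth factor expressed from the paternal allele, read 143 without and 704.8 with 4OHT, 4.46-fold higher, and 195, 32.1 and 299 on the other arrays. Sgce read 133 and 394, Cdkn1c is given above, and Peg3 read 37.9 and 18.9, a difference under 2-fold without centring. Among interferon response and antigen presentation genes, 2 of 11 were at least 2-fold lower and 0 at least 2-fold higher. Irf1, an interferon-induced transcription factor, read 589 without and 127 with 4OHT, and 1199, 543 and 357 on the other arrays, with the treated ES array lowest. Psmb8, a subunit of the immunoproteasome, read 80.1 without and 14.2 with 4OHT, 421 after reversion and 18.3 and 12.7 in the spheres. Psmb10, another immunoproteasome subunit and one of the 15 genes with the lowest differences, read 268 and 58.7, with 1214 in reverted cells. B2m, the light chain of MHC class I, went the other way with a log2 difference of 0.91.

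The 15 genes with the highest and the 15 with the lowest difference, among those reading at least 100 on their brighter array, include several outside these groups. Gpr135, an orphan receptor, read 26.5 without and 192 with 4OHT, 6.41-fold higher, and 13.4 to 23.2 on the other 3 arrays. G0s2, an inhibitor of triglyceride lipase, read 44.0 and 242, against 37.5 to 58.0 elsewhere. Rcc2, a chromatin-binding protein of mitosis, read 1132 and 5455, with 1592, 2004 and 4128 on the others. Tpp2, a cytosolic peptidase, read 63.7 without and 396 with 4OHT, and Zpr1, a zinc finger protein, read 258 and 1149. On the other 3 arrays Tpp2 read 324 to 459 and Zpr1 read 734 to 1224, so for both genes the untreated array was the one that stood apart. Wdr20 had a log2 difference of 2.62 (26.4 and 185) on its brighter probe and 0.13 on its second probe, so its value rests on 1 probe. Pla2g2e, the other called gene with a second compared probe, had 1.20 and -0.10, so 0 of these 2 genes passed 2-fold on both probes. Spink10 (285 with 4OHT) completes the 15.

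The lowest difference was that of Ppig, a nuclear cyclophilin, which read 526 without and 68.8 with 4OHT, 8.29-fold lower, and 618, 856 and 725 on the other arrays. Kcnk1, a potassium channel, read 158.5 and 23.9, against 119 to 265 elsewhere. Galnt12, which starts O-linked glycans, read 116 and 19.9, and Rsph3a, a radial spoke protein, read 204 and 37.2. For these 4 genes the treated ES array was the lowest of the 5. Slc27a2, a fatty acid transporter, read 277 and 56.0 but 25.7 in reverted cells, and Gsto1, a glutathione transferase, read 1250.1 and 268. Ppp1r1a, an inhibitor of protein phosphatase 1, read 1179 and 255, and the cholesterol exporter Abcg1 read 101 and 22.5. Plac8 (485 and 122), Cthrc1 (114 and 28.6) and Zbed5 (215 and 54.5) complete the list with Fgf15, Irf1, Mycn and Psmb10.

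**Figure D5:**
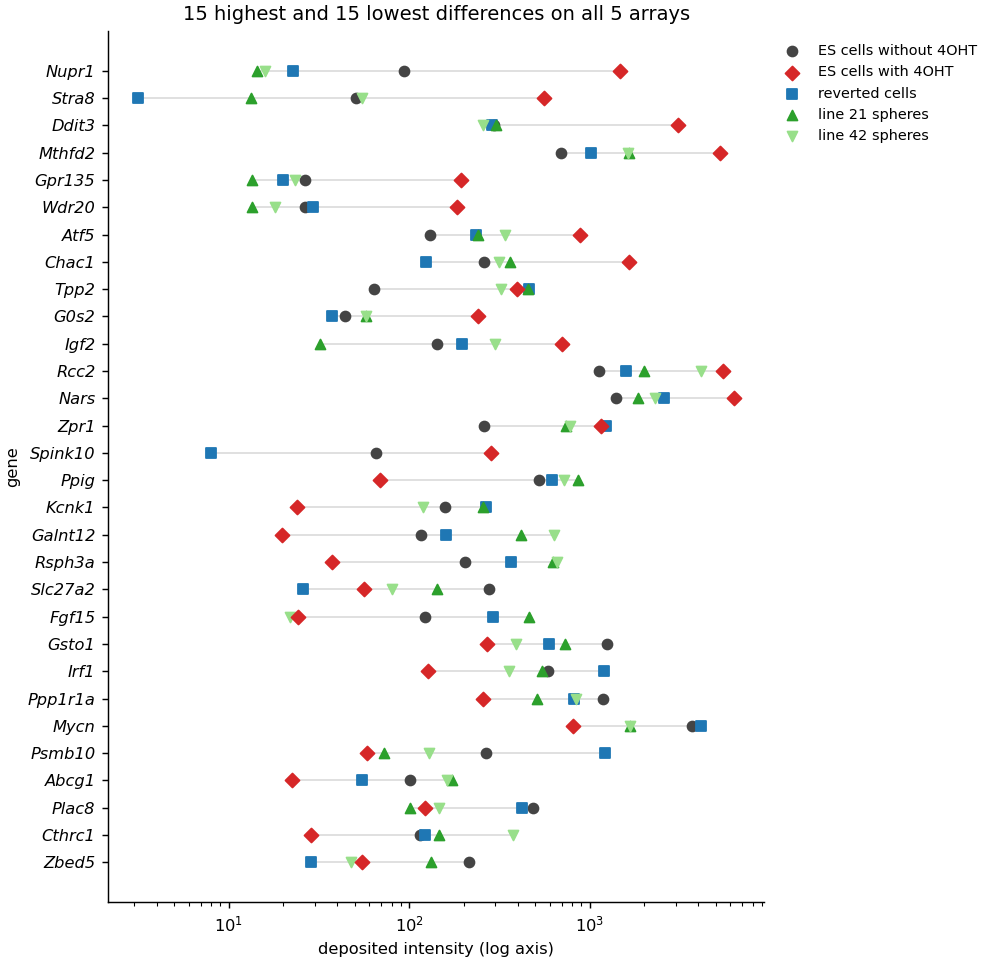
The intensity of the 15 genes with the highest and the 15 with the lowest differences is plotted on a log x axis, 1 row per gene and 1 point per array in its own colour and shape. The treated ES array lies apart from the other 4 for genes such as Nupr1 at 1467 and Ppig at 68.8, while for Tpp2 the untreated array, at 63.7, lies apart.

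Which of the 2 arrays stood apart was counted over all called genes with values on all 5 arrays. Of 226 genes at least 2-fold higher, the treated array was at least 2-fold above each of the other 4 in 83, the untreated array was at least 2-fold below each of the other 4 in 15, and 128 showed neither. Of 228 genes at least 2-fold lower, the treated array was at least 2-fold below each of the others in 47, the untreated array above each of the others in 16, and 165 showed neither. The genes whose pattern over the 5 arrays was most like that of Ddit3 were sought among the other higher genes, by the correlation of log2 values. They were Hexa (r = 0.99), Cpt1b (a carnitine palmitoyltransferase of mitochondria), Dyrk4, Nrk, Lactb2, Cryga, Cndp1 and Gpr135 (r = 0.96). With 5 points, of which 1 is far from the rest, these coefficients describe that pattern and carry no test. Drawing the genes from those higher with 4OHT favours high coefficients by itself. Dyrk4 (5.41), Cndp1 (10.6), Nrk (13.8), Cpt1b (16.6) and Gpr135 (26.5) lay under the percentile without 4OHT. Cndp1 and Nrk were under 2-fold with a pseudocount of 16.

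Some genes had a value on 1 of the 2 arrays only. There were 747 with a value only with 4OHT and 310 only without, and 0 of them reached an intensity of 100. The brightest with a value only in treated cells were Plek (80.8), Cd3d (24.6), Hkdc1 (20.1), Slfn4 (19.2) and Pigz (17.4). The brightest only in untreated cells were Slc4a4 (63.4), Fgf9 (56.3), Atp10a (28.9), Qrfprl (28.6) and Olfr1336 (14.1). An empty cell has no level, so no fold is given for these genes. Of 3273 compared probes without a gene name, 79 read at least 2-fold higher and 61 lower.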

How the data were processed

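Total RNA of each cell sample was amplified, labelled with Cy5 and hybridised to 1 one-colour Toray array, per the labels' protocols. The values used are the intensities that the authors deposited for 22871 probes per array, on a linear scale read from the values themselves. Their median was 50.0 on both ES arrays, and how the scanner values were corrected and normalized is not given in the sources used here. It is likewise unknown why 1392 probes (treated) and 2084 probes (untreated) have no value, and empty cells were not filled. Intensities ran from 2.96 to 118516 in treated and from 3.66 to 118794 in untreated cells.

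Probe names came from the platform annotation, with 16264 probes of 1 symbol, 0 of several and 6607 of none. Of 16087 symbols, 12239 were current in RefSeq's GRCm38.p6 gene table, 3787 were replaced through a synonym and 61 kept as given. A gene was represented by its brightest probe (mean of the 5 arrays). A pseudocount of 1 was added before log2, and arrays were then centred by the median of the 18884 probes with a value on all 5. The 40th percentile lay at an intensity of 29.1 in treated and 29.3 in untreated cells. A gene counted as apart at 2-fold or more. With 1 array per group no test is the main result. As an alternative, whose p-values stand only in the closing section, limma 3.58.1 (R 4.3.3) took the spread from the 2 sphere arrays. Python 3.11.15, numpy 2.4.6 and pandas 2.3.3 were used, and the scripts were checked on simulated data. The alternatives were another pseudocount, no centring, quantile normalization, other filters, the mean of probes and a 3-fold threshold.

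The comparison and the 44 gene lists were chosen with earlier results of these data known. Genes named are the 15 highest and 15 lowest with at least 100 on the brighter array, every list member at least 2-fold apart, up to 4 bright members of lists without one, all stress factors, ES markers and Akt genes on the array, the 5 brightest with a value on 1 array only in each direction, and the 8 most like Ddit3. Other list members under 2-fold, and Pck2, were named after their values were seen.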

Additional observations from a re-analysis of the deposited data

How the results depend on the processing

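The number of arrays limits every value, since no repeat of either ES culture is among them. No paired analysis was possible because each ES group has 1 array. The 252 higher and 236 lower genes became 168 and 143 with a pseudocount of 16, 359 and 393 without a filter, 170 and 143 with a 60th percentile filter, 172 and 151 with the 40th percentile required on both arrays, and 61 and 68 at a 3-fold threshold. Without centring they were 363 and 166 (68.6% of calls higher, against 51.6%). With limma and the spread of the 2 sphere arrays (1 residual degree of freedom), 0 genes were called higher and 0 lower, 133 of 9782 had an unadjusted p under 0.05, and the smallest adjusted p was 1. The median of the stress list was 0.81 with a pseudocount of 16, 1.22 without centring and 0.87 with the percentile required on both arrays, and at 3-fold 6 of its members were higher. Of 109 named genes at least 2-fold apart, 28 were under 2-fold in at least 1 alternative, 27 of them with a pseudocount of 16 and 9 without centring, and 0 changed sign. List medians within about 0.14 of 0 can change sign without centring, as those of the Akt and PI3K, FoxO, ER chaperone, heat shock, hypoxia, Wnt and LIF lists did. In dim genes the floor of the array bounds what a fold can show.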
